A study of Mus musculus with 19 samples.

Results

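The genes described here encode proteins that sit at the outermost step of Wnt signalling: the secreted frizzled-related proteins Sfrp1, Sfrp2, Sfrp4, Sfrp5 and Frzb, the Wnt inhibitory factor Wif1, and the frizzled receptors Fzd1 and Fzd2. They were chosen by name, with earlier results of these data known. They are 8 of the 18194 genes that had at least 1 probe set annotated to a single gene symbol on an Affymetrix mouse array. Together they had 17 probe sets, and the brightest of a gene's probe sets, by its mean over the 19 arrays, represents it, with the others given beside it. Sfrp1 had 5 probe sets, Fzd2 had 3, Frzb, Sfrp5 and Fzd1 had 2 each, and the other members had 1.

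RNA of 19 male C57BL/6 mice was taken from the left ventricle, with 1 array per mouse; they were operated at 7 weeks of age and killed 4 weeks later. The groups were 7 mice with banding of the aorta and heart failure, 7 mice with the same banding and no heart failure, and 5 sham-operated mice. Banding narrows the aorta, so that the left ventricle has to eject against a raised pressure; the criterion that defined heart failure is not given in the labels. The labels name no transgene and no drug, and the mice are numbered here within each group in the order of their records, which pairs none of them.

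Wnt proteins are secreted lipid-modified ligands that bind frizzled receptors, usually together with the co-receptors Lrp5 or Lrp6, and in the best known arm keep beta-catenin from being degraded, so that it can act in the nucleus with TCF and LEF factors. Secreted frizzled-related proteins carry a cysteine-rich domain like that of the frizzleds, while Wif1 has a domain of its own, and both kinds bind Wnt outside the cell. In the heart, Wnt signalling is needed during development, is low in the healthy adult ventricle and is studied in fibrosis, hypertrophy and repair after injury.

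Promoter sequence is shown for the members that were higher in both banded groups and are in the sequence table, Sfrp2, Frzb and Fzd1, and for Wif1, whose differences from sham did not pass the test. Each line gives the 250 bases before a RefSeq start site on the gene's own strand, 5′ to 3′, in the build GRCm38.p6. Of the 8 members, 5 were in this table. The Frzb, Fzd1 and Wif1 windows abut the RefSeq span of their gene. The Sfrp2 window lies inside the span of its gene, which begins at 83765750, so it precedes an internal start site. Capitals mark CTTTG or its reverse complement CAAAG, the core letters bound by TCF and LEF factors.
Sfrp2 promoter, chr3:83766071-83766320, plus strand: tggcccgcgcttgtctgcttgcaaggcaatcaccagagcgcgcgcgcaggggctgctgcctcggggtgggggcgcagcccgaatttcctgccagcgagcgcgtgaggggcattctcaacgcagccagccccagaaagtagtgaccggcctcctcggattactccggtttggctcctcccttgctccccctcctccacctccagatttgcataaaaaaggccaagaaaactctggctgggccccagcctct
Frzb promoter, chr2:80447397-80447646, minus strand: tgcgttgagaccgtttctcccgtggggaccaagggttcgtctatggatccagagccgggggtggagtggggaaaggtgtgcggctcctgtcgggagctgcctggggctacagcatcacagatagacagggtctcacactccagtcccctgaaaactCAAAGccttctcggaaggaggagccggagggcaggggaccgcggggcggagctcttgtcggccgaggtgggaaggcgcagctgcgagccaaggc
Fzd1 promoter, chr5:4758217-4758466, minus strand: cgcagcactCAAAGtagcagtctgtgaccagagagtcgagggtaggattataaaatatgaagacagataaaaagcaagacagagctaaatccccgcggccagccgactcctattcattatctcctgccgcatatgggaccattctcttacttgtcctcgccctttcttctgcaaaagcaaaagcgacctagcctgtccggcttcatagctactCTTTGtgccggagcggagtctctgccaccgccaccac
Wif1 promoter, chr10:121033754-121034003, plus strand: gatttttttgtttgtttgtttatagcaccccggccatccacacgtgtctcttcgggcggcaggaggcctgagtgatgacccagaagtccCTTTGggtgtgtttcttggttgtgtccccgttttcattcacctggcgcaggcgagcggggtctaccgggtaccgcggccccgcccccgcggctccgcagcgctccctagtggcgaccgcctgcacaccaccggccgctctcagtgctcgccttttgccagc

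Read on both strands, the core letters occurred 2 times in the Fzd1 window, 1 time in that of Frzb, 1 time in that of Wif1 and 0 times in that of Sfrp2. They were also present in 48.6% of all 32851 RefSeq windows of the same length, so a match is a description of the letters only. The base composition was GC-rich in Frzb (64.4%), Sfrp2 (63.6%) and Wif1 (62.8%), against a median of 52.4% over all windows, while Fzd1 had 51.2%. Of 3 other motifs searched on both strands, TATAAA occurred 1 time in Wif1 and 1 time in Fzd1 (12.4% of all windows), GGGCGG occurred 1 time in Frzb and 2 times in Wif1 (32.7%), and TGANTCA occurred in none of the 4 (6.75%). No motif searched contains the letters of another.

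The values are log2 signals after GCRMA, in which 50.5% of the values lie under 3, near a floor, so a probe set was tested only where its log2 signal was above 4 on at least 5 arrays. A difference of 1 on this scale is a doubling, and signals of different probe sets cannot be ranked against each other. Sfrp1, Sfrp2, Frzb, Wif1, Fzd1 and Fzd2 passed on all 19 arrays, and Sfrp4 and Sfrp5 passed on none. Tnnt2, the troponin T of heart muscle, was 16.05 to 16.13 in mice with heart failure and 16.05 to 16.12 in banded mice without it. In sham mice it was 16.04 to 16.16. This gene marks heart muscle and does not tell ventricle from atrium, and atrial markers, given below, varied widely between mice. Markers of other cells varied between mice. Mouse 1 with heart failure stood apart in the mesothelial genes Upk3b (7.33), Msln (6.88) and Lrrn4 (5.77). Upk3b was also above the filter in mouse 6 with heart failure (4.08), banded mouse 4 without it (5.24) and sham 4 (4.2). An 18S ribosomal RNA control was above 8 on the arrays of sham mice 1 to 3 and of banded mice without heart failure 5 to 7 and on no other array, which splits the arrays into a high and a low 18S set. The actin 3' minus 5' difference, a sign of RNA quality, was 0.661 to 0.905 in mice with heart failure and 0.672 to 0.898 in banded mice without it, below the 0.943 to 1.02 of sham mice.

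Against sham mice, Sfrp1, Sfrp2, Frzb and Fzd1 rose in mice with heart failure, by 2.19-fold to 8.84-fold, and Sfrp2, Frzb and Fzd1 rose in banded mice without heart failure, by 1.58-fold to 3.74-fold. Sfrp1, Frzb and Fzd1 were also higher in mice with heart failure than in banded mice without it, by 1.38-fold to 2.13-fold. No tested member fell in any of the 3 comparisons after adjustment in limma; at an unadjusted p under 0.05 there was 1, Wif1 in banded mice without heart failure. Both comparisons with sham share the same 5 sham mice, so their values for a member are not independent of each other.

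**Figure D1:**
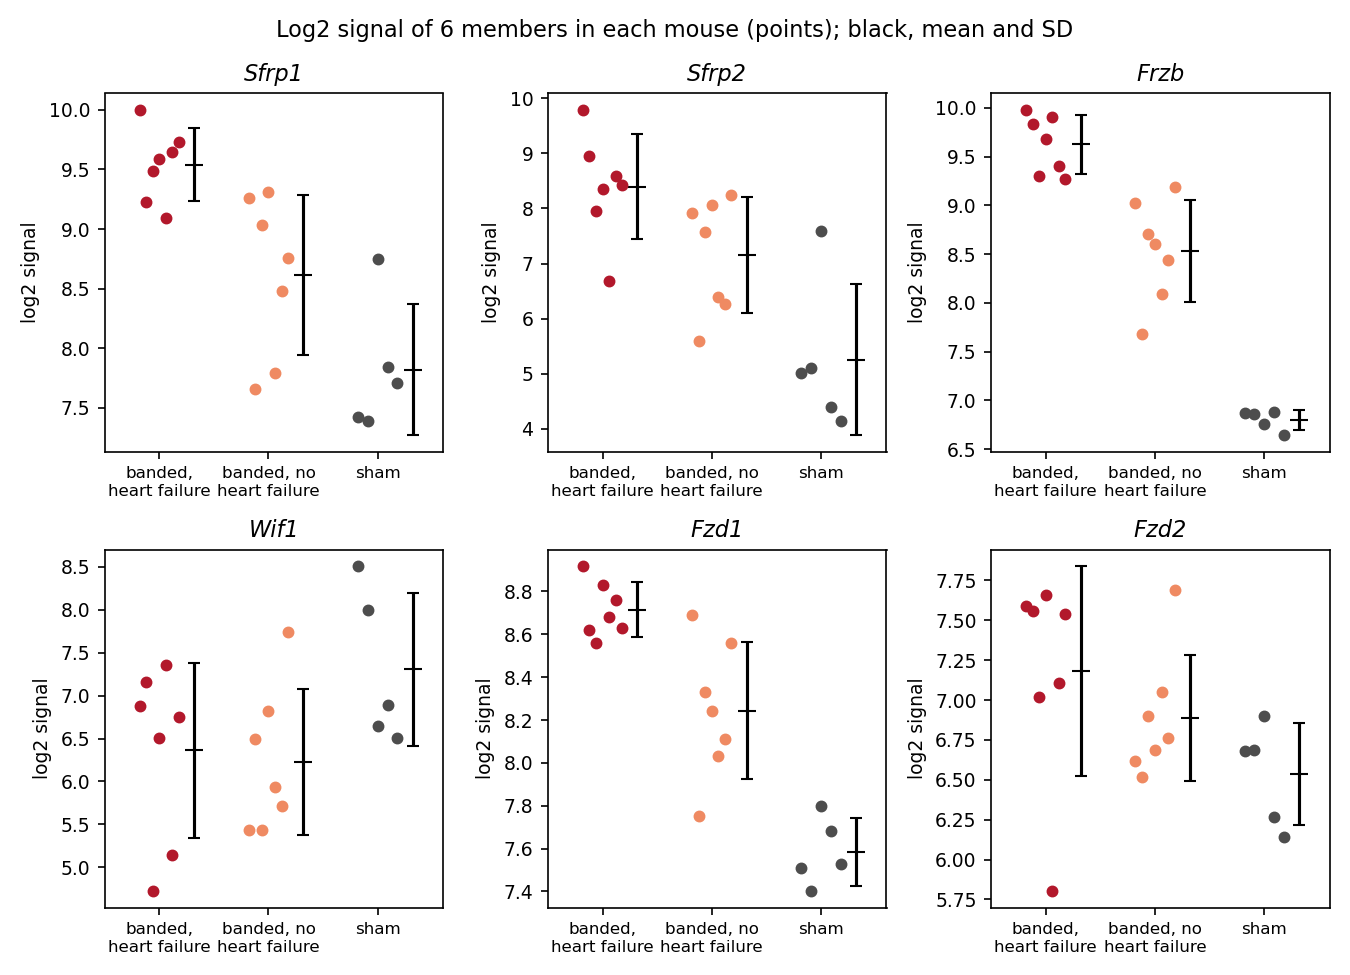
Log2 signal of each of the 6 tested members in every mouse, with the group mean and SD in black; groups run from banded with heart failure through banded without heart failure to sham, and each panel has its own vertical axis, which does not start at 0. Frzb separates all 3 groups, Sfrp1 and Fzd1 separate mice with heart failure from sham mice, and Wif1 overlaps in all of them.

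Sfrp1, which binds Wnts and frizzleds and is made by cardiac fibroblasts among other cells, was read by the probe set 1428136_at. Its log2 signal was lowest at 9.09, median at 9.59 and highest at 10.0 in the 7 mice with heart failure, and 7.66, 8.76 and 9.31 in the 7 banded mice without heart failure. The 5 sham mice had 7.42, 7.39, 8.75, 7.84 and 7.71. Every mouse with heart failure lay above every sham mouse, while 4 of 7 banded mice without heart failure lay above the highest sham mouse, sham 3. Sfrp1 rose 3.29-fold with heart failure against sham (log2 difference 1.72 ± 0.29, SE; limma adjusted p = 0.000146). It was 1.9-fold higher with than without heart failure (0.93 ± 0.26; adjusted p = 0.034). That call was lost when mouse 1, 4, 6 or 7 with heart failure or mouse 2, 5 or 6 without it was left out (limma adjusted p of 0.0547 to 0.085), with no filter (0.0748), with the 18S array set as a block (0.0866) and on the low 18S arrays alone (0.183). Without heart failure its difference from sham was 0.79 (95% interval 0.18 to 1.4; adjusted p = 0.0666), and it passed the test without sham 3 (1.02; limma adjusted p = 0.0204) or without banded mouse 2 (0.95) or 5 (0.93).

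Sfrp2, a relative of Sfrp1 that is also known as a co-factor of procollagen processing by Bmp1, had the single probe set 1448201_at. Its log2 signal was lowest at 6.69, median at 8.43 and highest at 9.79 with heart failure, and 5.60, 7.57 and 8.25 without heart failure. Sham mice had 5.01, 5.11, 7.59, 4.40 and 4.14. Sham 3 was far above the other 4 sham mice and inside the range of both banded groups, and 6 of 7 mice with heart failure were above it. Sfrp2 rose 8.84-fold with heart failure (log2 difference 3.14 ± 0.60; limma adjusted p = 0.00044), rank 15 from the highest among 10733 genes. Without heart failure it rose 3.74-fold (1.90 ± 0.60; adjusted p = 0.0353), and without sham 3 the same difference was 2.49 (limma adjusted p = 0.00494). That call was lost when banded mouse 1, 3, 4 or 7 or sham mouse 1, 2, 4 or 5 was left out, with limma adjusted p of 0.0605 to 0.0842. Between the banded groups the difference was 1.24 (95% interval 0.1 to 2.39; adjusted p = 0.157).

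Frzb, or sFRP3, was first described in developing cartilage as a Wnt-binding protein. Read by 1416658_at, its log2 signal was lowest at 9.27, median at 9.68 and highest at 9.98 with heart failure, and 7.68, 8.60 and 9.19 without heart failure. Sham mice had 6.87, 6.86, 6.76, 6.88 and 6.64. The 3 groups did not overlap at all: every mouse with heart failure was above every banded mouse without it, and each of those was above every sham mouse. Frzb rose 7.07-fold with heart failure against sham (log2 difference 2.82 ± 0.20; limma adjusted p = 2.32e-08) and 3.32-fold without heart failure (1.73 ± 0.20; adjusted p = 2.41e-05). It was 2.13-fold higher with than without heart failure (1.09 ± 0.19; adjusted p = 0.00299). Its second probe set gave 3.25, 2.14 and 1.11 for these 3 differences, each past the test. All 3 calls held in every setting tried and without any 1 mouse, with a limma adjusted p of at most 0.0401.

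Sfrp4 and Sfrp5, the remaining secreted frizzled-related proteins, were not measured above the filter in any mouse. Sfrp4 was listed at 2.43 on every array and the second Sfrp5 probe set at 2.19 on every array. The brighter Sfrp5 probe set, 1436075_at, was lowest at 3.17, median at 3.3 and highest at 3.58 with heart failure and 3.3, 3.3 and 3.51 without heart failure. Sham mice had 3.60, 3.83, 3.51, 3.67 and 3.35. The means were 3.31 with heart failure, 3.33 without and 3.59 in sham, and every one of these signals is below the filter. In a fit of all 18194 genes with no filter, the log2 differences of Sfrp5 from sham were -0.28 with heart failure and -0.26 without (limma adjusted p = 0.0106 and 0.0402, where 21.4% and 8.22% of genes were called). No fold is given for them.

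Wif1, which binds Wnts directly through a domain unlike that of the frizzled-related proteins, was read by 1425425_a_at. Its log2 signal was lowest at 4.72, median at 6.75 and highest at 7.36 with heart failure, and 5.44, 5.94 and 7.74 without heart failure. Sham mice had 8.51, 7.99, 6.64, 6.89 and 6.51. Sham mice 1 and 2 were the highest of all, 2 of 7 mice with heart failure and 5 of 7 without were below the lowest sham mouse, and the groups overlapped widely. The log2 difference from sham was -0.94 with heart failure (95% interval -2.0 to 0.11; limma adjusted p = 0.145) and -1.08 without (-2.13 to -0.03; adjusted p = 0.149), and neither passed. Sham mice 1 and 2 are among the sham mice of high 18S signal. With the 18S array set as a block the differences were -0.55 and -0.97 (limma adjusted p = 0.497 and 0.178), and on the low 18S arrays alone they were -0.34 and -0.65 (limma adjusted p = 0.749 and 0.677). Between the banded groups it was 0.14 (-0.83 to 1.1; adjusted p = 0.887), an interval that allows a change of either sign.

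Fzd1, a Wnt receptor that can signal through beta-catenin, was read by 1437284_at. Its log2 signal was lowest at 8.56, median at 8.68 and highest at 8.92 with heart failure, and 7.75, 8.24 and 8.69 without heart failure. Sham mice had 7.51, 7.40, 7.80, 7.68 and 7.53. All mice with heart failure were above all sham mice, 6 of 7 banded mice without heart failure were above the highest sham mouse, and 3 of 7 mice with heart failure were above the highest banded mouse without it. Fzd1 rose 2.19-fold with heart failure (log2 difference 1.13 ± 0.13; limma adjusted p = 2.05e-06) and 1.58-fold without (0.66 ± 0.13; adjusted p = 0.00168). The difference between the banded groups was 0.47 ± 0.12, or 1.38-fold (adjusted p = 0.0176). The second, dimmer probe set of Fzd1 gave smaller differences of 0.59 with heart failure, which passed (limma adjusted p = 0.0176), and of 0.35 without and 0.24 between the banded groups, which did not (adjusted p = 0.213 and 0.404).

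Fzd2, a receptor known to bind Wnt5a, was called by some of its probe sets and not by the brightest. On 1418534_at its log2 signal was lowest at 5.80, median at 7.54 and highest at 7.66 with heart failure, and 6.52, 6.76 and 7.69 without heart failure. Sham mice had 6.68, 6.69, 6.90, 6.27 and 6.14. Of the mice with heart failure, 6 of 7 lay above the highest sham mouse and mouse 5, at 5.80, lay below the lowest. The differences from sham were 0.65 with heart failure (95% interval 0.08 to 1.22; limma adjusted p = 0.0655) and 0.35 without (-0.21 to 0.92; adjusted p = 0.395), and the difference between the banded groups was 0.29 (-0.23 to 0.81; adjusted p = 0.485). Without mouse 5 with heart failure, the first was 0.88 and passed (limma adjusted p = 0.00151). The other probe sets gave larger differences: 1418533_s_at averaged 6.44 ± 0.51 with heart failure, 6.19 ± 0.42 without and 4.98 ± 0.67 in sham (SD), a rise of 1.46 (adjusted p = 0.000726) and 1.21 (adjusted p = 0.00919) on the log2 scale in limma's fit of all probe sets. The third, 1418532_at, was above the filter in 6 of 7 mice with heart failure, 6 of 7 without and 0 of 5 sham mice, with means of 4.94 ± 0.64 with heart failure, 4.5 ± 0.49 without and 3.06 ± 0.61 in sham, so no fold is given.

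**Figure D2:**
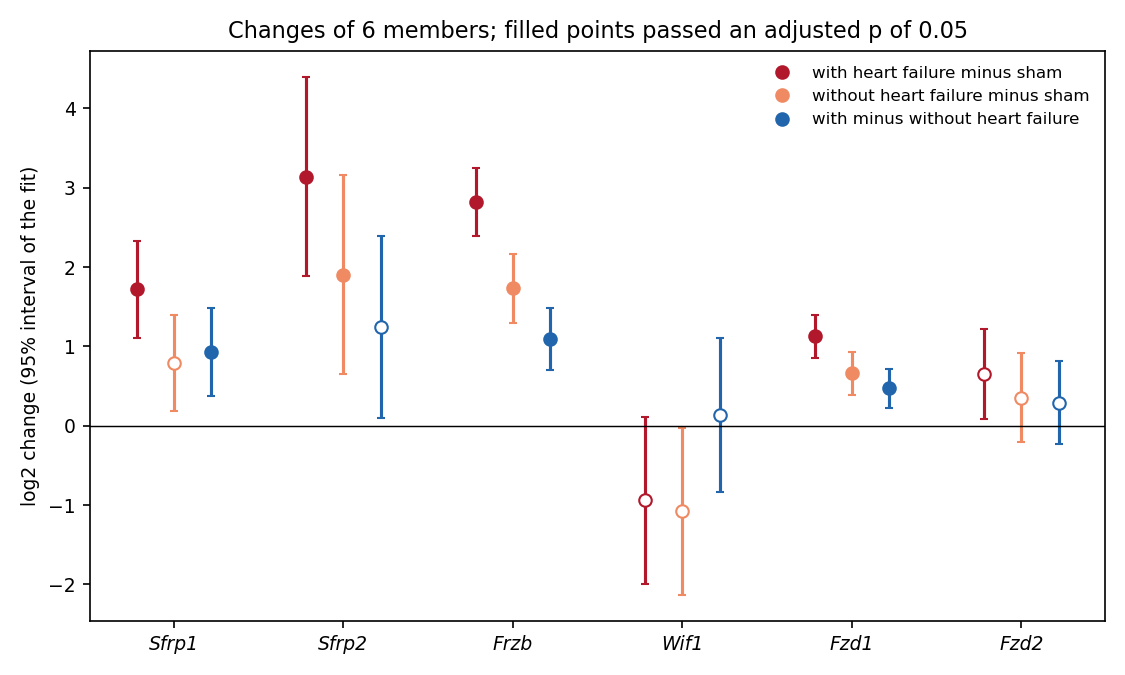
Log2 differences of the 6 tested members in the 3 comparisons, with 95% intervals of the limma fit; filled points had an adjusted p under 0.05. The intervals of Sfrp2 and Wif1 are the widest, and all 3 points are filled only for Frzb and Fzd1.

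Among the 6 tested members, 4 rose and 0 fell with heart failure against sham, where 39.3% of all 10733 genes were called and 20.4% were called higher. Without heart failure 3 of 6 rose against sham, where 17.4% were called and 10.8% called higher. Between the banded groups 3 of 6 were higher with heart failure, where 9.48% were called and 3.83% called higher. The median log2 difference of the 6 members was 1.42, 0.73 and 0.70 in these comparisons, against 0.01, 0.02 and -0.01 over all genes. Groups that did not overlap, with the banded or failing group higher, were seen for 3 members with heart failure against sham (Sfrp1, Frzb and Fzd1), where 8.5% of genes did so, for Frzb without heart failure (4.63%), and for Frzb between the banded groups (0.839%). Frzb stood at rank 29, 28 and 51 from the highest in the 3 comparisons and Sfrp2 at rank 15, 20 and 32, although the last difference of Sfrp2 did not pass the test. Wif1 stood at rank 32 from the lowest without heart failure against sham, also without passing. Because the members were chosen with earlier results of these data known, these counts, medians and ranks are a description and no test.

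Fitted one by one, 10 of 13 member probe sets were called with heart failure against sham, all of them higher. Of all 18595 probe sets 37.4% were called in either direction. The 13 read only 6 genes, so they are not independent of each other. This count leaves out the Fzd2 probe set 1418532_at, which was above the filter in no sham mouse. Of the 5 Sfrp1 probe sets 4 rose, by 1.11 to 1.95 on the log2 scale, and 1438620_x_at, which averaged 5.72 ± 0.17 with heart failure and 5.55 ± 0.09 in sham, had a difference of 0.17 (limma adjusted p = 0.2). Without heart failure against sham, where 14.8% of probe sets were called, 1 of the 5 Sfrp1 probe sets passed, 1448395_at with 1.11 (limma adjusted p = 0.0114). Between the banded groups, where 6.17% were called, only 1428136_at of the 5 passed, while 1448395_at and 1460187_at had similar differences of 0.83 and 0.97 (limma adjusted p = 0.0547 and 0.0674).

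**Figure D3:**
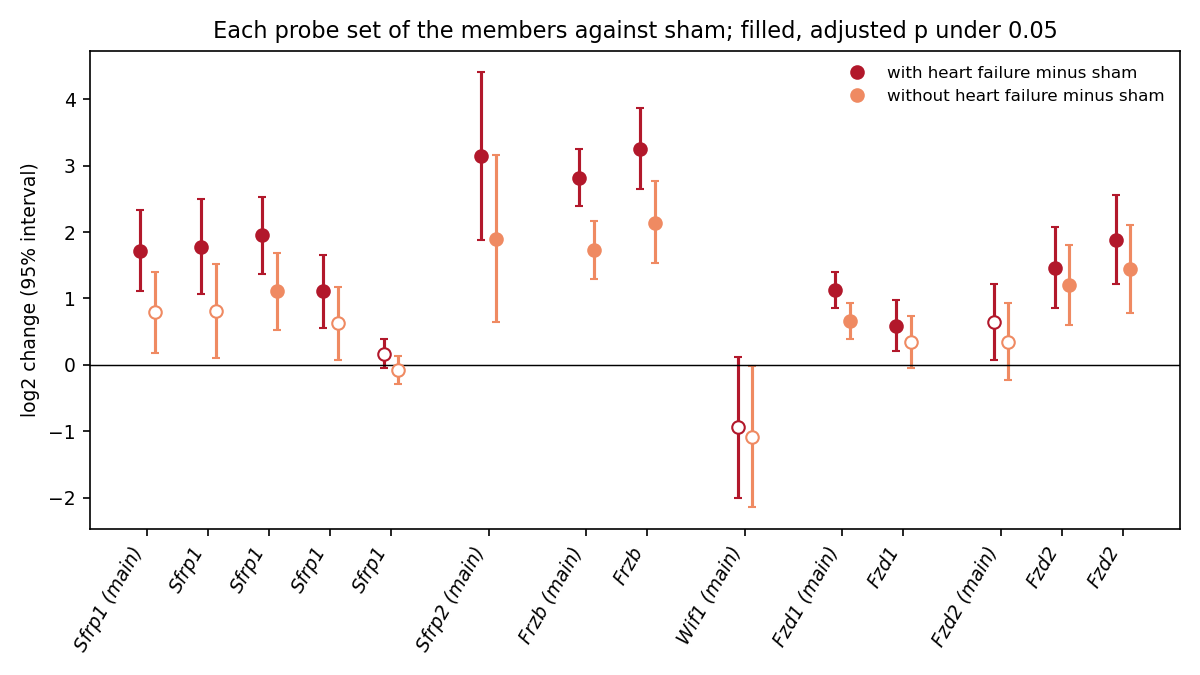
Log2 difference from sham for each of the 14 member probe sets above the filter, with 95% intervals; filled points had an adjusted p under 0.05. The probe sets of Sfrp1 spread from 0.17 to 1.95 with heart failure and those of Fzd2 from 0.65 to 1.88; on the last Fzd2 probe set no sham array passed the filter, so its points are no measure of fold and its calls are not counted.

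The labels hold animal numbers in 3 separate series, which are not named as batches. Within them Frzb was higher with heart failure than in sham by 3.07, 2.61 and 2.89, and without heart failure than in sham by 1.74, 1.31 and 2.17 (differences of log2 means, with 3, 1 and 1 sham mice). Sfrp2 gave 3.47, 3.76 and 3.76 with heart failure and 1.07, 2.19 and 3.85 without heart failure. The differences between the banded groups were less even. Sfrp2 gave 2.4, 1.57 and -0.09, Sfrp1 1.28, 1.19 and 0.20, Fzd1 0.54, 0.65 and 0.22, and Frzb 1.33, 1.30 and 0.72, so each was smallest in the third series, with 3 mice with heart failure and 2 without. With the series as a block the calls of Sfrp1, Sfrp2, Frzb and Fzd1 were as reported above, and Fzd2 passed with heart failure against sham (0.83; limma adjusted p = 0.0107). With the 18S array set as a block Fzd2 passed with heart failure against sham (0.96; limma adjusted p = 0.0172), and Sfrp1 between the banded groups was 0.82 and not called. On the 13 arrays of low 18S signal alone, Frzb was the only member called without heart failure against sham and between the banded groups. With the actin difference as a covariate the calls above held and Fzd2 passed in both comparisons with sham (1.45 and 1.17; limma adjusted p = 0.00125 and 0.0145). The actin difference did not overlap between sham mice and either banded group. This fit therefore cannot separate it from banding, and its comparisons with sham are extrapolations. The arrays of high 18S signal are those of the 3 sham mice and the 3 banded mice without heart failure of the first series. The series and the 18S set are therefore not separate controls. The part of the series, the 18S set and the actin difference in the results was not tested further.

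The left ventricle was measured whole, so more cells of a type and more RNA per cell cannot be told apart. Of 13 fibroblast markers 10 rose with heart failure against sham, 7 of 13 without heart failure, and 6 of 13 were higher with than without heart failure. Over all genes 20.4%, 10.8% and 3.83% were called higher in these comparisons. The log2 of the summed linear signals of the 13 markers was 16.53 to 16.9 with heart failure, 16.02 to 16.61 without and 15.74 to 16.28 in sham. Of 8 markers of activated fibroblasts 7, 6 and 5 were higher in these comparisons, and their sum was 14.79 to 15.28 with heart failure, 13.38 to 14.66 without and 12.68 to 13.4 in sham. The 5 called between the banded groups, with their log2 differences, were Cthrc1 (2.09), Comp (1.86), Thbs4 (1.74), Ltbp2 (1.73) and Postn (1.07). The part of cell composition in the members' differences was not tested.

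Markers of other cells moved too, given here as log2 differences that passed limma's test at an adjusted p under 0.05. Over all genes 39.3% passed with heart failure against sham, 17.4% without it against sham and 9.48% between the banded groups. Of 12 heart muscle markers, Des (0.76) and Mybpc3 (0.27) rose and Myh6 (-0.15), Tnni3 (-0.27), Ryr2 (-0.23) and Pln (-0.17) fell with heart failure against sham. Without heart failure Des (0.66) and Mybpc3 (0.3) rose, and Tnni3 was lower with than without heart failure (-0.18). Their sum was 19.01 to 19.13 with heart failure, 19.11 to 19.17 without and 19.05 to 19.19 in sham. Of 10 endothelial markers, Pecam1 (0.37), Tie1 (0.42) and Robo4 (0.36) rose with heart failure, Tie1 (0.52) and Robo4 (0.5) rose without it, and Cdh5 was lower with than without heart failure (-0.37). Their sum was 13.2 to 13.6 with heart failure, 13.4 to 13.69 without and 13.22 to 13.34 in sham. Of 9 smooth muscle and pericyte markers, Tagln (0.83), Pdgfrb (0.39) and Cspg4 (0.84) rose and Abcc9 (-0.57) and Kcnj8 (-0.29) fell with heart failure. Without heart failure Pdgfrb (0.4), Cspg4 (0.78) and Notch3 (0.52) rose and Abcc9 (-0.3) fell, and Abcc9 (-0.27) and Kcnj8 (-0.45) were lower with than without heart failure. Their sum was 14.89 to 15.05 with heart failure, 14.97 to 15.2 without and 14.95 to 15.05 in sham. Of 12 macrophage and leukocyte markers, Cx3cr1 alone passed, with heart failure against sham (0.79; limma adjusted p = 0.0351). Their sum was 12.54 to 13.16 with heart failure, 12.62 to 13.05 without and 12.47 to 13.85 in sham, so the highest value was in a sham mouse. Of 4 Schwann cell markers 2 were tested; Kcna1, above the filter in 4 of 7 mice with heart failure, fell by 1.54 against sham and was 1.40 lower than without heart failure (log2 differences of -1.54 and -1.4; limma adjusted p = 0.00756 and 0.0295), and S100b and Foxd3 were below the filter on every array. The Schwann cell sum was 4.4 to 5.65 with heart failure, 5.64 to 7.07 without and 5.62 to 7.01 in sham.

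Of the 6 tested atrial muscle markers, Kcnj3 fell in both comparisons with sham, and Kcnj3 and Myl7 were lower with than without heart failure. Myl7, the atrial myosin light chain, was lowest at 2.3, median at 6.03 and highest at 13.89 with heart failure, where 4 of 7 mice were above the filter, and 8.86, 11.85 and 13.75 without heart failure. Sham mice had 7.53, 9.79, 9.89, 12.67 and 11.49. The log2 difference of Myl7 between the banded groups was -4.93 (limma adjusted p = 0.0457), and those of Kcnj3, a subunit of an atrial potassium channel, were -1.59 and -0.79 against sham and -0.8 between the banded groups (limma adjusted p = 4.82e-06, 0.00896 and 0.00972). The median log2 difference of the 6 tested of 8 atrial markers was -1.58 with heart failure against sham, 0.73 without heart failure against sham and -1.71 between the banded groups. Their sum was 9.64 to 15.4 with heart failure, 11.01 to 14.89 without and 10.97 to 13.92 in sham, and Gja5 and Bmp10 were below the filter on every array. Mouse 1 with heart failure had the highest Myl7 and Sln (12.92) of its group. The part of atrial tissue in the members' differences was not tested.

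Of 9 mesothelial markers Wt1 and Tbx18 were tested, and with heart failure against sham they differed by 0.33 and 0.44 (limma adjusted p = 0.31 and 0.0769); Krt19 and Bnc1 were below the filter on every array, and the mesothelial genes of mouse 1 with heart failure have been given above. Without that mouse the rises of Sfrp1, Sfrp2, Frzb and Fzd1 against sham were 1.64, 2.91, 2.76 and 1.09, each still called, while Sfrp1 between the banded groups was 0.85 and no longer called (limma adjusted p = 0.0743).

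Members also varied together between mice of 1 group. The deviations of each mouse from its group mean were correlated for all 15 pairs of the 6 members over 19 mice, with two-sided permutation tests within groups and Benjamini-Hochberg adjustment over the 15 pairs. Passing were Sfrp1 with Sfrp2 (r = 0.794, permutation p = 0.00056, adjusted p = 0.00395; rho = 0.804, adjusted permutation p = 0.00577), Sfrp1 with Fzd1 (r = 0.783, rho = 0.775, adjusted permutation p = 0.00395 and 0.00577) and Frzb with Fzd1 (r = 0.809, rho = 0.686, adjusted permutation p = 0.00395 and 0.0163). Sfrp2 also went with Fzd1 (r = 0.669, rho = 0.635, adjusted permutation p = 0.00429 and 0.0247) and with Fzd2 (r = 0.65, rho = 0.63, adjusted permutation p = 0.00429 and 0.0163). Without the pair of mice farthest from the median of the first gene, these 5 values of r were 0.673, 0.696, 0.648, 0.721 and 0.561. Within the 13 arrays of low 18S signal they were 0.84, 0.811, 0.85, 0.665 and 0.701, and within the 8 mice of the first animal series 0.888, 0.857, 0.726, 0.913 and 0.755. The other series held too few mice of a group for a value of their own. Sfrp1 with Frzb (r = 0.492, adjusted permutation p = 0.167) and Sfrp2 with Frzb (r = 0.482, adjusted permutation p = 0.0796) did not pass. Without the pair of mice farthest from the median of the first gene, Sfrp1 with Frzb was 0.391, and Sfrp2 with Frzb was 0.771 without sham 3 and mouse 5 with heart failure. The 5 pairs with Wif1 ran from -0.239 to 0.368, with none passing. Some pairs that did not pass were also high within the first animal series. There Frzb with Wif1 was 0.736, Fzd1 with Fzd2 0.789 and Frzb with Fzd2 0.749, each above Frzb with Fzd1. On the low 18S arrays these were 0.18, 0.186 and -0.0149.

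**Figure D4:**
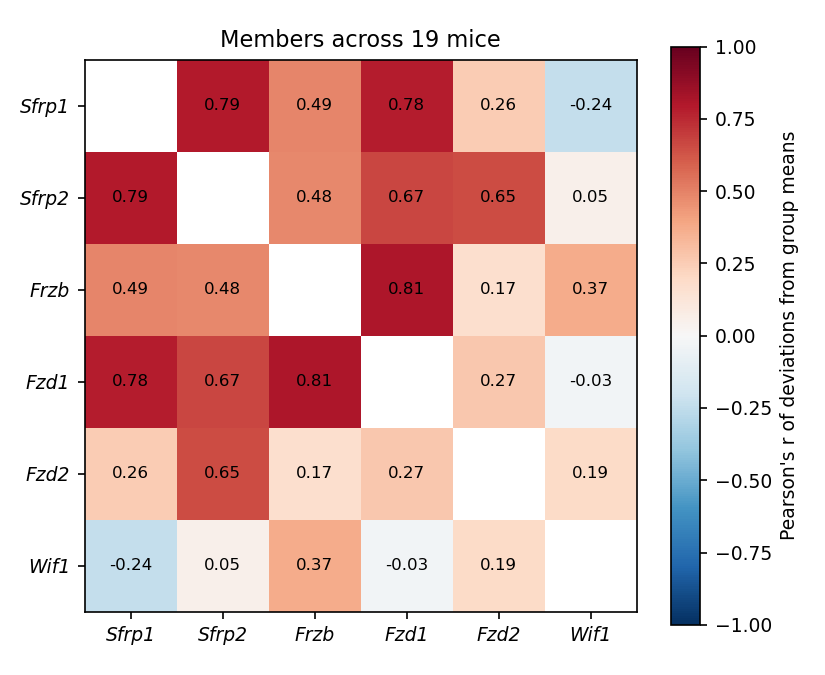
Pearson's r between the deviations from group means of each pair of the 6 tested members over 19 mice; red is positive and blue negative. The block of Sfrp1, Sfrp2, Frzb and Fzd1 ranges from 0.482 to 0.809, and Wif1 has no value above 0.368.

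Left ventricular weight over tibia length, which was 8.97 ± 0.608 with heart failure, 6.98 ± 0.437 without and 5.14 ± 0.26 in sham (SD), was set against the 6 members within each banded group. None of the 12 exact two-sided permutation tests passed after adjustment. The strongest was Sfrp1 without heart failure (r = 0.841, rho = 0.643, n = 7, exact permutation p = 0.023, adjusted p = 0.276), which was 0.353 without the 2 mice farthest from the median weight. Without those 2 mice, other values of r were stronger over the 5 left: -0.906 for Fzd1 with heart failure (exact permutation p = 0.0167, unadjusted), and -0.868 for Wif1 and -0.86 for Fzd2 without heart failure (exact permutation p = 0.0333 and 0.0417, unadjusted). With all 7 mice these were -0.065, -0.46 and -0.259, and none of the 12 passed after adjustment without the 2 mice. An exact test on 5 mice has too few pairings for a single correlation to pass over 12 tests, so that outcome is not informative.

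The genes whose signal ran most like that of a member are named here by Pearson's r over the 19 arrays, which share the group differences. For Frzb they were P3h2 (r = 0.978), a collagen prolyl hydroxylase, Postn (0.977), periostin, and Thbs4 (0.976), a thrombospondin. For Sfrp1 they were Col3a1 (0.953), Mmp23 (0.944) and Fn1 (0.942), for Sfrp2 Col14a1 (0.956), Tmem45a (0.952) and Col3a1 (0.939), and for Fzd1 Olfml3 (0.982), Bgn (0.975) and App (0.974). For Fzd2 they were Kdelr3 (0.897), Ranbp1 (0.894) and C1qtnf2 (0.892). After group means were removed, the nearest genes were Mmp23 (0.887), Col3a1 (0.87) and Timp2 (0.85) for Sfrp1, and Tmem45a (0.899), Col14a1 (0.894) and Igfbp4 (0.872) for Sfrp2. They were Mgp (0.858), Krt18 (0.838) and Cnn3 (0.818) for Frzb, Olfml3 (0.895), Pqlc3 (0.885) and Npdc1 (0.863) for Fzd1, and Adcy7 (0.91), Fat1 (0.909) and Ranbp1 (0.877) for Fzd2.

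For Wif1 the nearest gene was Chad, which encodes chondroadherin, a leucine-rich protein of cartilage matrix, with r = 0.882 over all arrays and 0.889 after group means were removed, followed by Rc3h1 (0.726) and Dctn6 (0.718) over all arrays and by Nr2c2ap (0.728) and Omd (0.699) after group means were removed. Chad was lowest at 3.2, median at 5.36 and highest at 7.42 with heart failure and 3.97, 4.25 and 5.89 without, and sham mice had 7.95, 5.73, 5.37, 5.46 and 4.61. Sham 1 was thus the highest mouse for both genes. Chad belongs to a list of 7 valve and cartilage markers, of which 4 were tested. Sox9 (1.11) and Scx (0.5) were higher with heart failure against sham (limma adjusted p = 0.00292 and 0.0095), and Sox9 was higher without heart failure (1.0; limma adjusted p = 0.0149). Cnmd was above the filter in no mouse with heart failure and passed it only through the other groups. Its signal was lower with heart failure than in sham, but for this reason no difference or test is given. Chad differed from sham by -0.49 and -1.04 without passing (limma adjusted p = 0.576 and 0.287). Their sum was 7.08 to 8.3 with heart failure, 7.02 to 7.7 without and 6.68 to 8.5 in sham, and Acan, Col2a1 and Matn4 were below the filter on every array. Whether valve or cartilage-like tissue has a part in the Wif1 signal was not tested.

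Of the other genes of the pathway, 110 had a probe set of 1 symbol and 69 were tested. With heart failure against sham 16 were higher and 5 lower (30.4% called), without heart failure 10 were higher and 1 lower (15.9%), and between the banded groups 5 were higher and 3 lower (11.6%). The shares over all genes in the same order were 39.3%, 17.4% and 9.48%. Called higher were 20.4%, 10.8% and 3.83% of all genes, and the counts of single lists below stand beside these shares. The median differences of the 69 genes were 0.03, 0.09 and 0.01.

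Other secreted or membrane inhibitors moved in the same direction as the tested frizzled-related proteins where they passed. Of 5 tested, 4 rose with heart failure against sham, where 20.4% of all genes were called higher. Without heart failure 2 rose (10.8% of all genes), and 1 was higher with than without heart failure (3.83%). Shisa3, of a family known in Xenopus for holding frizzled receptors inside the cell, averaged 6.84 ± 0.39 with heart failure, 5.54 ± 0.44 without and 4.06 ± 0.17 in sham, where 2 of 5 arrays were above the filter (SD). It rose by 2.79 and 1.48 on the log2 scale against sham and was 1.31 higher between the banded groups (limma adjusted p = 2.52e-08, 9.31e-05 and 0.000903). Dkk3, a member of the Dickkopf family whose role in Wnt signalling is debated, rose by 1.97 with heart failure (adjusted p = 0.00803), and Igfbp4, which binds insulin-like growth factors and Lrp6, by 0.71 (adjusted p = 0.0082). Apcdd1, a membrane inhibitor of Wnt, differed by 0.4 (adjusted p = 0.0991 in limma). Kremen1, a receptor of Dickkopf proteins, rose by 0.69 with and 0.55 without heart failure (adjusted p = 9.4e-07 and 5.96e-05). Dkk1, Dkk2, Dkk4 and Sost did not pass the filter.

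On the ligand side, 5 of 19 Wnt genes were tested and only Wnt5a, a ligand of the arms that do not use beta-catenin, passed. It averaged 6.69 ± 0.26 with heart failure, 7.09 ± 0.26 without and 7.49 ± 0.15 in sham (SD). It fell by 0.80 with heart failure and by 0.41 without, and was 0.39 lower with than without heart failure (log2 differences of -0.80, -0.41 and -0.39; limma adjusted p = 0.000137, 0.0429 and 0.0493). Of 3 tested genes of Wnt processing and secretion, Wls, the carrier of Wnts to the cell surface, was 0.25 higher with than without heart failure (adjusted p = 0.0256), and the other differences did not pass.

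Of the 5 other frizzled receptors tested, Fzd7 rose by 0.78 with and 0.56 without heart failure (limma adjusted p = 0.000232 and 0.00956), and Fzd5 fell by 0.61 with heart failure (adjusted p = 0.00704). Fzd4, Fzd6 and Fzd8 differed from sham by -0.32 to 0.11 in either banded group, without passing. Of 6 co-receptors tested, Ryk, a Wnt-binding receptor with a kinase-like domain, rose by 0.29 (adjusted p = 0.0146) and Lgr6, a receptor of R-spondins, fell by 1.01 (adjusted p = 0.000758) with heart failure. Lrp5 rose by 0.97 without heart failure (adjusted p = 0.0319). The R-spondin genes Rspo1, Rspo2, Rspo3 and Rspo4 did not pass the filter.

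In the beta-catenin core, 3 of 19 genes rose with heart failure, where 20.4% of all genes were called higher. Without heart failure 3 of 19 rose, where 10.8% of all genes were called higher. Ctnnb1, which encodes beta-catenin, rose by 0.26 with and 0.15 without heart failure (limma adjusted p = 0.000758 and 0.0489), and Pygo2, a nuclear partner of it, by 0.38 and 0.34 (adjusted p = 0.00313 and 0.0173). The other calls were Bcl9l with heart failure (0.66), Gsk3b without (0.39) and Tcf7l1 between the banded groups (0.42). Of 10 genes listed as targets, 5 rose and 1 fell with heart failure against sham, where 39.3% of all genes were called in either direction. Ccn5, Nkd2 and Myc rose by 3.14, 1.68 and 1.58 (limma adjusted p = 1.97e-05, 0.000212 and 0.000101), Ccn4 and Cd44 by 1.06 and 0.86 (limma adjusted p = 0.0192 and 0.000218), and Tnfrsf19 fell by 0.67 (adjusted p = 0.00341). Without heart failure 2 of 10 rose, Ccn5 by 2.07 and Myc by 1.18 (limma adjusted p = 0.00333 and 0.00391). Between the banded groups Nkd2 (0.97) and Cd44 (0.53) were higher and Tnfrsf19 (-0.62) lower with heart failure (limma adjusted p = 0.0303, 0.0234 and 0.0162). Axin2, often used as a readout of the beta-catenin arm, averaged 4.6 ± 0.53 with heart failure, 4.85 ± 0.32 without and 4.87 ± 0.34 in sham, differences of -0.27 and -0.02 that did not pass (adjusted p = 0.375 and 0.973). Of 15 tested genes of the planar polarity and calcium arms, Prickle2 and Rac1 rose by 0.5 and 0.18 and Camk2a fell by 0.65 with heart failure (limma adjusted p = 0.0051, 0.0251 and 0.000226). Prickle2 also rose without heart failure (0.43), and Camk2a was lower with than without it (-0.36; limma adjusted p = 0.0283 and 0.0362).

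**Figure D5:**
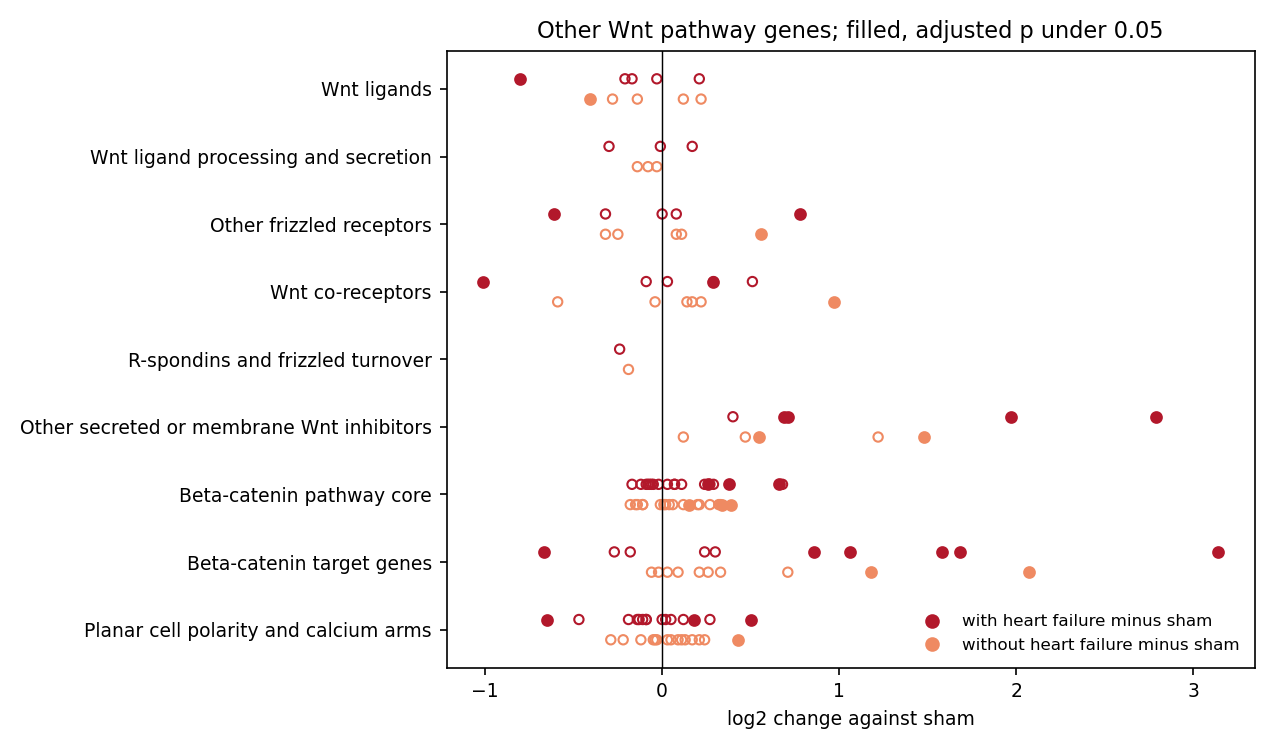
Log2 difference from sham of the 69 other tested pathway genes, by list, with heart failure (dark) and without (light); filled points had an adjusted p under 0.05. Filled points above 1 lie among the other inhibitors (Shisa3 and Dkk3) and the targets (Ccn5, Nkd2, Myc and Ccn4), and the points of the beta-catenin core lie between -0.18 and 0.68.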

How the data were processed

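The authors deposited log2 expression values of 45101 probe sets, and per the submitters' processing notes GCRMA made them; neither its version nor a genome build is given in the sources used here. The method adjusts background by probe sequence, brings arrays to a common scale and summarises each probe set, which draws dim probe sets to a floor and compresses their changes. Values ran from 2.19 to 16.77, with array medians of 2.85 to 2.99. Arrays have no sequencing depth, and precision is limited by how many there are.

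Gene names came from the platform annotation: 34958 had 1 symbol, 932 had several and 9211 were not listed; no member shared a probe set with another symbol. Those above log2 4 on at least 5 arrays were kept (18595), and each of 10733 genes was represented by its brightest. The 3 comparisons came from one model of all 19 mice with a term for group, fitted by lmFit and eBayes of limma 3.58.1 in R 4.3.3, and p-values were adjusted by Benjamini-Hochberg over 10733 genes, with 0.05 as the threshold; adjusted p-values, standard errors and 95% intervals without another name come from it. The labels give 1 mouse per array, and the p-values measure the spread between these mice. Correlations were tested by permutation in Python 3.11.15 with scipy 1.17.1 and pandas 2.3.3, with 100000 permutations for pairs of members and every pairing for ventricular weight. Figures were drawn with matplotlib 3.10.9.

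The members, the pathway and marker lists, the alternatives and the rule for naming genes were chosen with earlier results of these data known. All members are named; of each other pathway list up to 3 genes a comparison are named, those past the threshold with the largest change, or all where 5 or fewer passed; marker genes are named where 5 or fewer passed, and the 3 genes most like each member by Pearson's r. Genes given as below the filter, Fzd4, Fzd6, Fzd8, Apcdd1, Axin2, Wt1, Tbx18, Tnnt2, Ccn4, Cd44, Tnfrsf19, the heart muscle genes with heart failure against sham and the markers that stood out in 1 mouse were picked after their values were seen. Summed signals are log2 of the sum of linear signals over a list's tested genes. Promoter sequence is from RefSeq (GRCm38.p6).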

Additional observations from a re-analysis of the deposited data

Results flagged for a closer look

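Of 18 groups of member values tested for a single mouse far from the others, 2 had one, and chance gives about 1 in 20. Sfrp2 in sham mouse 3 was 7.59, with the nearest other sham mouse at 5.11, so the gap was 0.72 of the group's range, above Dixon's critical value of 0.71 for 5 mice. The same mouse was also the highest sham mouse for Sfrp1 (8.75), Fzd1 (7.80) and Fzd2 (6.90). Fzd2 in mouse 5 with heart failure was 5.8, with the nearest at 7.02, a gap of 0.654 of the range against a critical value of 0.568 for 7 mice. That mouse also had the lowest Sfrp2 signal of its group, 6.69, while its Frzb signal was 9.91. What sets these mice apart was not tested.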

How the results depend on the processing

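The settings tried were no filter, a filter at log2 above 5, the mean of probe sets, quantile normalisation, equal array medians, the animal series or the 18S array set as a block, the low 18S set alone, the actin difference as a covariate, only the groups compared, and eBayes with trend and robust. Leaving out sham 3 and banded mouse 2 without heart failure together, and fitting each probe set on its own, were chosen after seeing the data. No paired analysis was possible because each array is of a different mouse and the labels pair none of them. The number of members called in either direction with heart failure against sham was 4 to 5 over these settings. It was also 4 to 5 when any 1 mouse was left out. Without heart failure against sham the number was 1 to 4, and 2 to 4 without any 1 mouse. The 1 was in the low 18S set alone, which holds 2 of the 5 sham mice. With no filter the calls with heart failure were 4 higher and 1 lower, and those without heart failure 2 higher and 1 lower. The lower one was Sfrp5, whose signals are all below the filter. Between the banded groups the number was 1 to 3, with 1 in the low 18S set alone, and 2 to 3 without any 1 mouse.

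The call of Sfrp2 without heart failure was also lost with no filter (limma adjusted p = 0.0794), with only the groups compared (0.0582) and in the low 18S set, where its difference was 3.02. Sfrp1 without heart failure was called by 1.18 without sham 3 and banded mouse 2 together. Fzd1 was not called in the low 18S set without heart failure against sham (0.65) or between the banded groups (0.46), nor there with the mean of probe sets (0.36). The sign of 1 difference turned: Wif1 between the banded groups was -0.03 without mouse 5 with heart failure, in a range of -0.03 to 0.41 over mice left out. The causes were not tested. Quantile normalisation and equal medians moved the median gene by at most 0.068 in size.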
